A study of Mus musculus with 7 samples.

Results

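The genes described here are 4 heart transcription factors (Hand1, Hand2, Nkx2-5 and Mef2c) and 6 genes of the cardiac sarcomere (Actc1, Tnnt2, Myh6, Myh7, Myl4 and Myl7), followed through mouse embryonic cells sorted for the study of kidney precursors. They were found as the probes that are not controls and whose gene name in the array files is one of these symbols, which gave 11 probes for the 10 genes. The arrays hold 55647 probes and 27113 named genes in all. Myh6 had 2 probes and each of the other genes 1.

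In the early embryo, cardiac mesoderm switches on a network of transcription factors that act together on shared target genes. NKX2-5 is a homeodomain factor of cardiac progenitors, HAND1 and HAND2 are basic helix-loop-helix factors of the heart and of lateral plate, limb and extraembryonic mesoderm, and MEF2C is a MADS-box factor of muscle that endothelium, neural crest and neurons use too. The sarcomere genes are their downstream side: alpha-cardiac actin (Actc1) builds the thin filament, cardiac troponin T (Tnnt2) ties the troponin complex to tropomyosin, Myh6 and Myh7 encode the alpha and beta myosin heavy chains, and Myl4 and Myl7 encode the atrial essential and regulatory light chains. Actc1, Tnnt2 and Myl4 are also transcribed in embryonic skeletal muscle, so they do not by themselves mark cardiomyocytes.

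All cells came from C57BL6J mice carrying a knock-in of GFP at Osr1, a gene of early intermediate and lateral plate mesoderm. Whole embryos at E8.5 gave cells with GFP (GFP+) and cells without it (GFP-). The caudal part of E9.5 embryos gave 3 populations: gated cells, which carried GFP and integrin alpha 8 (Itga8) and lacked Pdgfra; the remaining GFP+ cells; and GFP- cells. The metanephric mesenchyme of E11.5 gave gated cells and remaining GFP+ cells. The labels do not give the zygosity of the knock-in, or whether embryos were pooled. Because the dissected tissue changed with the stage, stage and tissue cannot be told apart in any comparison across stages.

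Each population was read on 1 single-colour array after amplification of 10 ng of total RNA, so no comparison has a replicate check and no p-value is given, and this single array limits the precision. Between 56.2% and 84.1% of spots lay well above background; the low value belongs to GFP- cells of E8.5 and the high value to the remaining GFP+ cells of E9.5. Signal is the spot brightness on its linear scale as deposited. A level is log2 signal after each array's own 75th percentile (log2) was subtracted, and differences between arrays are differences of levels. Gated and GFP- cells of E9.5 lay on slide 2 and the other 5 arrays on slide 1; where a comparison crosses slides, slide and population cannot be told apart. Where a probe was not well above background on one of the arrays, the difference is called a bound and written as "at least". It is a strict limit only where the dim value lay under the array's lowest well-above value and was raised to it. A dim value over that was used as it was, and the difference is then an estimate. This holds for Hand2 and Tnnt2 in gated cells of E9.5, at -4.36 and -3.97 beside -4.61. It holds for Myl7, Tbx1 and Tbx3 in gated cells of E11.5 too, at -4.29, -5.01 and -4.25 beside -5.12. The second Myh6 probe in GFP- cells of E8.5 is a further case, at -3.42 beside -3.46. A difference counted from 4-fold. Probes spotted 10 times on each array had a median SD of 0.13 log2 units within an array, and the SD of a difference between single spots was 0.10 for levels above 0, 0.15 from -2 to 0, 0.36 from -4 to -2 and 0.76 below -4. This is spot error only, not the spread between embryos or sorts.

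The sort genes followed the gates. Osr1 had levels of 0.85 and -3.23 in GFP+ and GFP- cells of E8.5, of 1.03, -0.08 and -4.38 in gated, remaining GFP+ and GFP- cells of E9.5, and of 1.63 and -1.80 in gated and remaining GFP+ cells of E11.5. Itga8 stood at 2.15 in gated and 0.20 in remaining GFP+ cells of E9.5, and at 2.82 and -1.31 at E11.5. Pdgfra stood at -0.52 and 3.44 in these populations of E9.5, still well above background in gated cells, and at -5.92 and 4.04 at E11.5. Six2, a nephron progenitor factor not used in the sort, stood at 1.16 in gated and -2.63 in remaining GFP+ cells of E9.5. At E11.5 it stood at 4.10 in gated and -3.58 in remaining GFP+ cells.

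The probe sequences show what each measurement reads. The probes of Tnnt2, Mef2c and Myl7 are printed because their 60 bases are spread over 313, 2238 and 250 bases of the mm9 genome in the array files, so each matches the genome in separate pieces.
Tnnt2, chr1:137747976-137748288, plus strand: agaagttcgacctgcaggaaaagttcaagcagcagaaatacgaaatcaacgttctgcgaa
Mef2c, chr13:83772788-83775025, plus strand: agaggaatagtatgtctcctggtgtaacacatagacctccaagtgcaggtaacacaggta
Myl7, chr11:5798186-5798435, minus strand: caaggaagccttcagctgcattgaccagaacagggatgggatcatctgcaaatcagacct

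The myosin heavy chain probes are printed because the 2 probes of Myh6 gave different values. Of the brighter Myh6 probe and the Myh7 probe only the first 30 bases are shown, and the second Myh6 probe is shown whole. It lies upstream of the brighter one in the direction of transcription. All are on the minus strand of chromosome 14 in mm9, and their place in exons, coding sequence or UTR was not looked up here.
Myh6, brighter probe, chr14:55560774-55560833: gcacgacgaggaataacctctccagcagac
Myh6, second probe, chr14:55584132-55584191: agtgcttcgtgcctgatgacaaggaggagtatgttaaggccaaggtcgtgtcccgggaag
Myh7, chr14:55589581-55589640: atgaggagtagctcttgtgctacccagctc

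At E8.5, 5 of the 10 genes were at least 4-fold higher in GFP+ than in GFP- cells, 4 of them sarcomere genes: Myh6 by 8.96-fold, Hand2 by 6.81-fold, Tnnt2 by 5.74-fold, Myl4 by 5.32-fold and Actc1 by 4.47-fold. None was 4-fold lower. With normexp background correction only Myh6 and Myl4 still passed, Hand2 standing at 1.80, Actc1 at 1.74 and Tnnt2 at 1.62 log2 units. Fewer of all genes passed as well: 27 of 18539 were at least 4-fold higher with normexp, against 179 of 18057 without it. Of 18057 genes measured in this comparison, 0.991% were at least 4-fold higher and 2.71% at least 4-fold lower. The median difference was 2.28 log2 units over the 6 sarcomere genes and 1.03 over the 4 factors, against 0.05 over all measured genes. In bulk RNA of sorted cells, fewer cells of a type and less RNA per cell cannot be told apart, here or in the comparisons that follow.

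Among the factors, Hand1 had a signal of 1398 in GFP+ and 628.9 in GFP- cells of E8.5, a 2.02-fold difference. Hand2 read 382.0 in GFP+ and 51.0 in GFP- cells. Mef2c gave 73.7 in GFP+ and 32.5 in GFP- cells, a 2.06-fold difference. Both HAND genes and Mef2c were thus brighter in GFP+ cells, and only Hand2 passed 4-fold. Nkx2-5 was dim throughout: its signal was 25.3 in GFP+ cells and 5.3, not well above background, in GFP- cells, which gives at least 1.10-fold.

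Among the sarcomere genes, Myh6 had a signal of 989.9 in GFP+ and 100.4 in GFP- cells. Myl4 read 1271 in GFP+ and 217.2 in GFP- cells, and Actc1 read 954.7 in GFP+ and 194.3 in GFP- cells. Tnnt2 gave 359.3 in GFP+ and 56.9 in GFP- cells. All 4 were well above background in both populations. Myl7 had 80.7 in GFP+ cells and 5.9, not well above background, in GFP- cells, a difference of at least 3.50-fold. Myh7 had the opposite sign, with 56.1 in GFP+ and 68.6 in GFP- cells, 1.34-fold lower. The level plot shows GFP+ cells of E8.5 as the highest point for Actc1, Tnnt2, Myh6, Myl4 and Myl7.

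**Figure D1:**
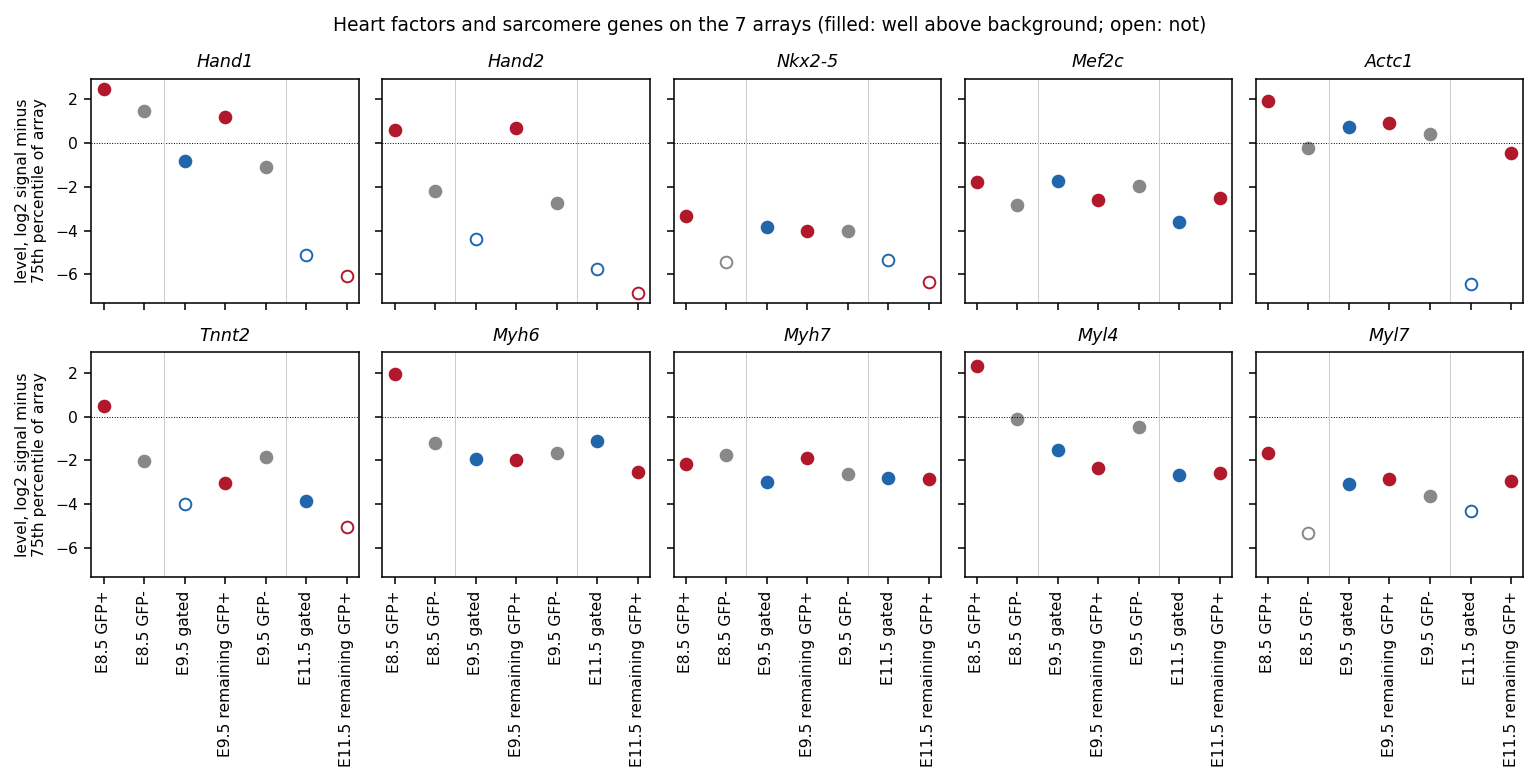
Level of each gene (log2 signal minus the 75th percentile of the array, y axis) in the 7 populations (x axis), 1 array each; filled points were well above background and open points were not, and the dotted line marks the 75th percentile. Hand1 stands at 2.46 in GFP+ cells of E8.5 and is an open point in both populations of E11.5, while Myh7 stays between -2.98 and -1.75.

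The 2 probes of Myh6 disagreed in size. The brighter one differed by 3.16 log2 units between GFP+ and GFP- cells of E8.5, while the second, with signals of 33.4 in GFP+ cells and 21.6, not well above background, in GFP- cells, differed by at least 0.49. With the median of both probes as the value of the gene, the E8.5 difference of Myh6 was 1.83 and no longer reached 4-fold. The same held for the step to E9.5: the brighter probe was 15.4-fold lower in the remaining GFP+ cells of E9.5 than in GFP+ cells of E8.5, whereas the second differed by 0.22 log2 units in the opposite direction.

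**Figure D2:**
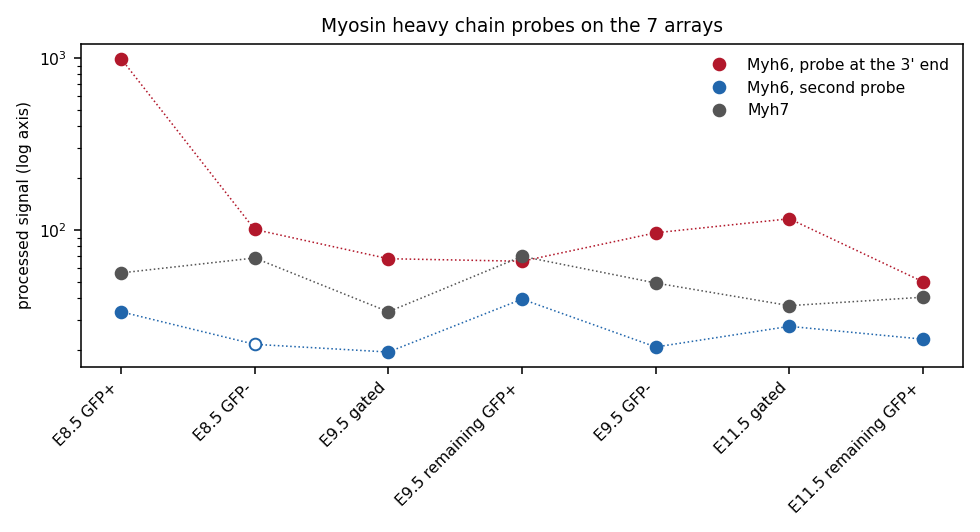
Processed signal (y axis, log scale) of the 2 Myh6 probes and the Myh7 probe in the 7 populations (x axis), 1 array each; the open point was not well above background, and dotted lines only join the points of a probe. The brighter Myh6 probe reaches 989.9 in GFP+ cells of E8.5, where the second Myh6 probe reads 33.4 and Myh7 reads 56.1.

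Other genes of the cardiac programme moved less uniformly. Of 32 further sarcomere and cardiac muscle genes, 23 were measured at E8.5, of which 1 was at least 4-fold higher and 1 at least 4-fold lower in GFP+ cells, with a median difference of 0.27. The higher one was Nebl, a Z-disc protein, by at least 4.06-fold, and the lower one was Gja5, the gap junction protein connexin 40, by 4.58-fold. Of 24 further cardiac transcription factors, 21 were measured; 3 were at least 4-fold higher, none was 4-fold lower, and the median was 0.72. These 3 were Isl1, a factor of the second heart field and the hindlimb field, by 13.3-fold, Gata6 by 7.30-fold and Tbx3 by 4.71-fold.

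Markers of other cell types differed between the same 2 arrays. Of 12 lateral plate and limb genes, all measured, 8 were at least 4-fold higher in GFP+ cells, with a median of 2.30; Isl1 and Gata6 stand in this list too, beside Prrx1 at 9.31-fold and Fgf10 at 8.05-fold. Of 13 endothelial genes, 8 read higher and 5 lower in GFP+ cells, with a median of 0.66, and 4 were at least 4-fold higher. The summed signal of the list, in units of the 75th percentile, was 16.7 in GFP+ and 8.96 in GFP- cells. Of 11 erythroid genes, 10 were at least 4-fold lower in GFP+ cells; the summed signal was 7.40 in GFP+ and 2522 in GFP- cells, with 7 and 11 of the 11 well above background. The skeletal muscle list had 13 of 20 genes measured, none 4-fold higher and 1 (Mylpf) at least 5.74-fold lower. The part of these cell types in the differences of the heart genes was not tested.

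**Figure D3:**
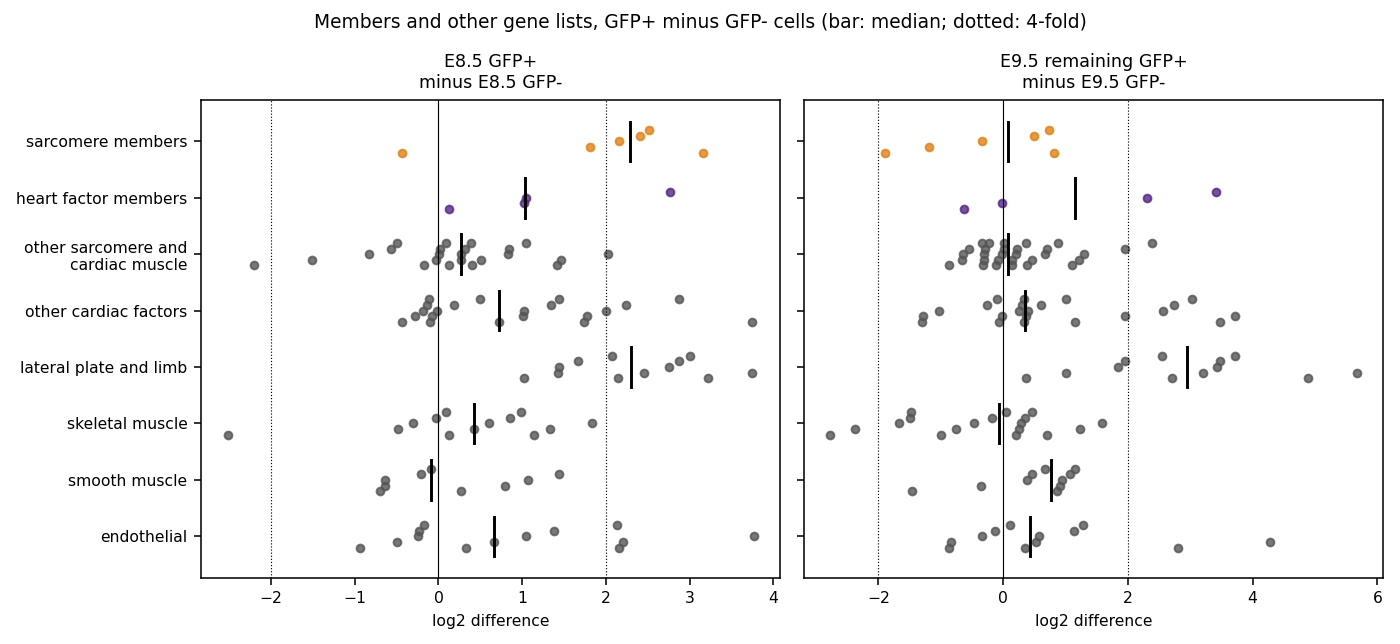
Difference in level (x axis, log2 units) between GFP+ and GFP- cells at E8.5 (left) and between remaining GFP+ and GFP- cells at E9.5 (right), 1 point per measured gene, with the gene lists down the page; black bars are medians and dotted lines mark 4-fold. The median of the sarcomere genes is 2.28 at E8.5 and 0.07 at E9.5, while that of the lateral plate and limb list is 2.30 and 2.95.

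At E9.5 the genes past 4-fold between the remaining GFP+ and the GFP- cells were factors. In the remaining GFP+ cells Hand2 was 10.6-fold and Hand1 4.93-fold higher, and no sarcomere gene passed 4-fold in either direction. Under quantile normalization and without scaling Myl4 did, at -2.09 and -2.11 log2 units, and with normexp Hand1 fell short at 1.89. Of 23705 genes tested, 0.797% were at least 4-fold higher and 1.27% at least 4-fold lower. The median difference of the sarcomere genes was 0.07 log2 units, against 0.14 over all measured genes.

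Hand1 had signals of 150.5 in gated cells, 592.8 in the remaining GFP+ cells and 139.5 in GFP- cells of E9.5. Hand2 read 12.8, not well above background, in gated cells, 414.8 in remaining GFP+ cells and 45.3 in GFP- cells. The remaining GFP+ cells were therefore the brightest of the 3 populations for both. Nkx2-5 gave 18.4 in gated, 15.9 in remaining GFP+ and 18.6 in GFP- cells. Mef2c gave 78.3 in gated, 43.1 in remaining GFP+ and 76.7 in GFP- cells. Mef2c was 1.79-fold higher in gated than in remaining GFP+ cells, and neither gene passed 4-fold between any pair of these populations.

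Tnnt2 had signals of 16.8, not well above background, in gated cells of E9.5, 31.6 in remaining GFP+ cells and 83.8 in GFP- cells. Myl4 read 92.5 in gated, 50.1 in remaining GFP+ and 216.5 in GFP- cells. GFP- cells were the brightest for these 2 genes, in contrast to E8.5: Tnnt2 was 2.29-fold and Myl4 3.72-fold lower in the remaining GFP+ cells than in GFP- cells. Actc1 read 436.5 in gated, 489.1 in remaining GFP+ and 404.9 in GFP- cells. Of the myosin genes, Myh6 had 67.9 in gated, 65.6 in remaining GFP+ and 96.0 in GFP- cells. For Myh7 the signals were 33.4 in gated, 70.1 in remaining GFP+ and 49.0 in GFP- cells. For Myl7 they were 31.0 in gated, 36.4 in remaining GFP+ and 24 in GFP- cells. No pair of populations of E9.5 differed by 4-fold in Actc1, Myh6, Myh7, Myl4 or Myl7. The direction for Myh6 depended on the probe: remaining GFP+ minus GFP- cells was -0.34 with the brighter probe and 1.14 with the second.

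The skeletal muscle list was split between the remaining GFP+ and the GFP- cells of E9.5. Of 18 measured genes, 9 read higher and 9 lower in remaining GFP+ cells, with a median of -0.07 log2 units. Of these, 2 were at least 4-fold lower, Tnnc2 (fast troponin C) by 6.84-fold and Myh3 (embryonic myosin heavy chain) by 5.19-fold, and none was 4-fold higher. The summed signal of the list was 13.6 in remaining GFP+ and 15.8 in GFP- cells, with 15 of 20 genes well above background in each. Myod1, the brightest gene of the list, weighs most in these sums, at levels of 2.60 in remaining GFP+ and 2.78 in GFP- cells. Its level lay between 2.29 and 2.99 on all 7 arrays, so the sums are not a measure of muscle cells. The erythroid list summed to 11.6 in remaining GFP+ and 1361 in GFP- cells. Their part in the Tnnt2 and Myl4 values was not tested.

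Against the remaining GFP+ cells, gated cells of E9.5 had 1 of the 10 genes past 4-fold, Hand2, at least 32.9-fold lower. Hand1 was 3.99-fold lower, just short of the threshold, and passed it under quantile normalization. The genes at least 4-fold higher made up 0.841% and those at least 4-fold lower 1.19% of 23542 measured. Lateral plate and limb genes went with them: 8 of 12 were at least 4-fold lower in gated cells and none higher, among them Tbx5, a forelimb and heart factor, by at least 30-fold, Hoxd13 by 16.8-fold, Tbx4 by 12.3-fold and Pitx1 by 8.93-fold. None of the 30 measured genes of the further sarcomere and cardiac muscle list passed 4-fold.

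Set against GFP- cells, which shared their slide, gated cells of E9.5 had 1 of the 10 genes past 4-fold: Tnnt2, at least 4.37-fold lower, but short of 4-fold with normexp (-0.73 log2 units). Hand2 was at least 3.1-fold lower, while Hand1 was 1.23-fold higher. The background shares were 1.18% at least 4-fold higher and 1.87% at least 4-fold lower of 21457 genes.

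**Figure D4:**
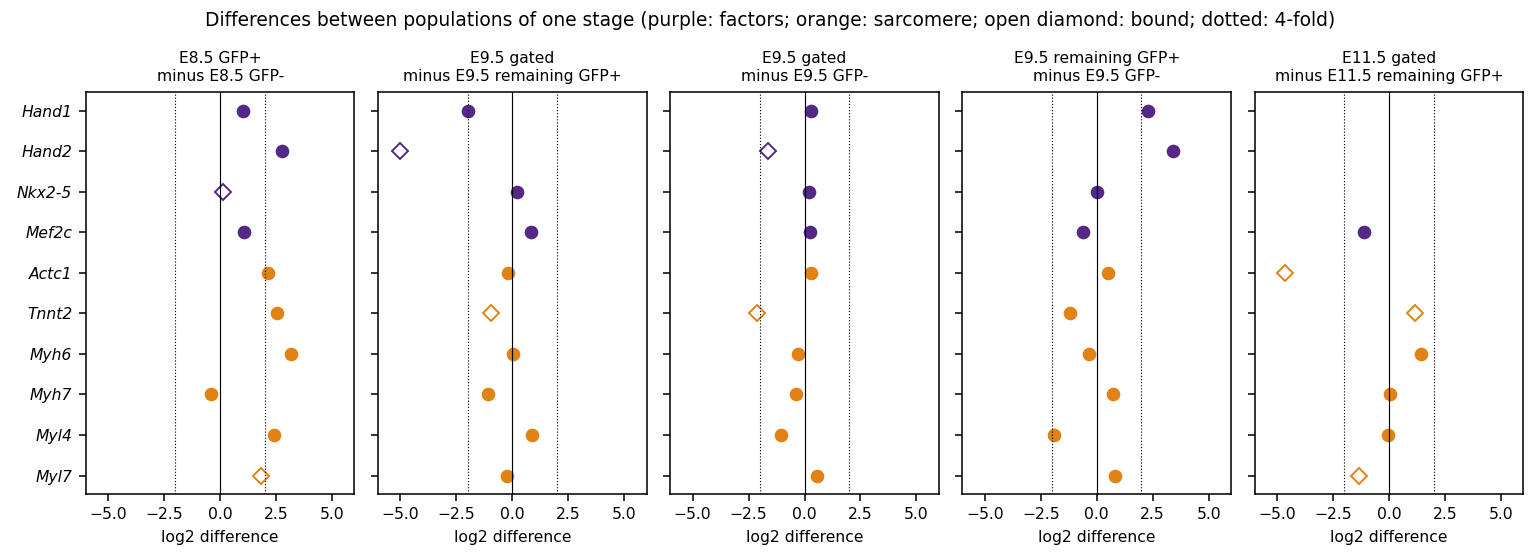
Difference in level (x axis, log2 units) of each gene (down the page) in the 5 comparisons within a stage, with 1 array per population; circles were well above background on both arrays, open diamonds are bounds, and dotted lines mark 4-fold. Hand2 and 4 sarcomere genes lie right of the 4-fold line at E8.5 (Myh6 at 3.16), and Hand1 and Hand2 lie right of it in the remaining GFP+ cells of E9.5 (Hand2 at 3.41).

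At E11.5, 3 of the 4 factors were not well above background in either population of the metanephric mesenchyme. Of all named genes, 74.5% were well above background in gated and 75.6% in remaining GFP+ cells. Hand1 had signals of 7.2 in gated and 4.3 in remaining GFP+ cells, Hand2 of 4.7 in gated and 2.5 in remaining GFP+ cells, and Nkx2-5 of 6.3 in gated and 3.6 in remaining GFP+ cells. No fold is given for these 3 genes. Mef2c was still measured in both, at 20.5 in gated and 51.6 in remaining GFP+ cells, 2.17-fold lower in gated cells.

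Actc1 separated the 2 populations of E11.5. Its signal was 2.9, not well above background, in gated cells and 210.6 in remaining GFP+ cells, at least 25.2-fold lower in gated cells. With normexp the difference was -1.73 and short of 4-fold. No other of the 10 genes passed, beside 2.16% of 21621 measured genes at least 4-fold higher and 3.25% at least 4-fold lower. Myl7 read 12.8 (not well above background) in gated and 37.7 in remaining GFP+ cells, at least 2.54-fold lower. Myh6 read 115.9 in gated and 49.8 in remaining GFP+ cells, 2.69-fold higher in gated cells, and Tnnt2 read 17.3 in gated cells and 8.8, not well above background, in remaining GFP+ cells, at least 2.27-fold higher. Myh7, with 36.2 in gated and 40.5 in remaining GFP+ cells, and Myl4, with 40.0 in gated and 48.4 in remaining GFP+ cells, differed by 0.05 and -0.06 log2 units, and the sign for Myh7 turned with other scalings.

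Smooth muscle genes moved with Actc1 at E11.5 in part. Of 10 measured, 8 read lower and 2 higher in gated cells, with a median of -0.46 log2 units. Past 4-fold were 2, both lower in gated cells, Myl9 by 4.78-fold and Mylk by 4.44-fold. The summed signal of the list was 10.2 in gated and 11.47 in remaining GFP+ cells. Des weighs most in the gated sum and went the other way, 3.01-fold higher in gated cells (level 2.33 against 0.74). Of 20 further cardiac transcription factors measured, 6 were at least 4-fold lower in gated cells and none higher, among them Tbx1 by at least 353-fold, Gata6 by 38.8-fold, Isl1 by 24.3-fold and Tbx3 by at least 13.7-fold. Of 8 lateral plate and limb genes, which include Gata6 and Isl1, 5 were at least 4-fold lower and 1 higher. No gene of the further sarcomere and cardiac muscle list passed 4-fold among 26 measured, and in the skeletal muscle list 1 of 15 did, Actn3, 9.41-fold higher in gated cells. Whether other cells of the sort contributed to the Actc1 value was not tested.

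Across stages, 3 of the 6 sarcomere genes fell between E8.5 and E9.5. In the remaining GFP+ cells of E9.5, set against GFP+ cells of E8.5, Myl4 was 25.8-fold lower, Myh6 15.4-fold lower and Tnnt2 11.6-fold lower, and no factor passed 4-fold; 1.70% of 23412 genes were at least 4-fold higher and 0.82% at least 4-fold lower. Hand2 had a similar level at both stages, 0.68 at E9.5 and 0.59 at E8.5. Actc1 was 1.99-fold lower and Myl7 2.26-fold lower at E9.5. Among the further cardiac genes past 4-fold, Gata4 was 14.4-fold lower, Myl2, the ventricular regulatory light chain, 5.49-fold lower and Nebl 4.45-fold lower, while Gja5 was 5.52-fold higher.

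In GFP- cells, 1 of the 10 genes passed 4-fold: Hand1, 5.86-fold lower at E9.5 than at E8.5, beside 1.69% of 18899 genes at least 4-fold higher and 1.74% at least 4-fold lower. Tnnt2 and Myl4 differed by 0.18 and -0.38 log2 units, and the sign for Tnnt2 turned under quantile normalization. Of 15 skeletal muscle genes measured on these arrays, 3 were at least 4-fold higher at E9.5: Tnnc2 was 13.8-fold, Myh3 at least 7.49-fold and Myog 5.34-fold.

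Hand1 fell between E9.5 and E11.5 in both populations. In gated cells, Actc1 was at least 57.8-fold and Hand1 at least 19.9-fold lower at E11.5 than at E9.5, with Hand1 at -1.50 log2 units and short of 4-fold under normexp, while 1.28% of 21475 genes were at least 4-fold higher and 3.00% at least 4-fold lower. In the remaining GFP+ cells, Hand1 was at least 75.3-fold, Hand2 at least 52.7-fold and Tnnt2 at least 4.02-fold lower at E11.5, beside 1.60% of 23628 genes at least 4-fold higher and 3.44% at least 4-fold lower. All measured genes had a median of -0.36 in that last comparison, and the Tnnt2 bound no longer reached 4-fold under quantile normalization (-1.25), without scaling (-1.84) or with normexp (-0.26). Actc1 in the remaining GFP+ cells was 2.61-fold lower at E11.5. In gated cells, 11 of 13 endothelial genes were at least 4-fold lower at E11.5 than at E9.5, and so were 7 of 11 measured lateral plate and limb genes. In the remaining GFP+ cells these counts were 6 of 13 and 7 of 12.

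Ordered by level over the 7 populations, 7 of the 10 genes were highest in GFP+ cells of E8.5. The share of all named genes highest in that population was not counted, so this number describes the 10 genes only. The step to the next population was 3.08 log2 units for Myh6, 2.41 for Myl4, 2.34 for Tnnt2 and 1.18 for Myl7, each more than 2 SD of spot error at these levels. For Actc1 and Hand1 it was 0.99 and 1.02, and for Nkx2-5 it was 0.51 and within 2 SD. The order of Myh6 is that of its brighter probe. The second Myh6 probe was highest in remaining GFP+ cells of E9.5, at -2.71, against -2.93 in GFP+ cells of E8.5. Hand2 had its highest level in the remaining GFP+ cells of E9.5, only 0.09 above GFP+ cells of E8.5 and within 2 SD of spot error. For Myh7 and Nkx2-5 every neighbour in the order lay within 2 SD, and for Mef2c every neighbour but the last, gated cells of E11.5, which stood 0.78 below the next population.

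Over the 7 arrays, levels of the sarcomere genes had pairwise Pearson correlations of 0.23 to 0.93 (median 0.56, 15 pairs), and those of the factors 0.33 to 0.96 (median 0.65, 6 pairs). Pairs of a factor and a sarcomere gene ran from -0.1 to 0.87 (median 0.65, 24 pairs), so these values do not set the groups apart. Tnnt2 and Myl4 reached 0.93, and Hand1 and Nkx2-5 0.96. These points share the arrays, their scaling and the floors of dim probes, so the values describe these 7 arrays only. Among 4991 named genes with a range of at least 2 log2 units that were well above background on at least 2 arrays, the profile most like the mean of the sarcomere genes was that of 4633402D09Rik (r = 0.98, Spearman 1). Tbx20 (r = 0.98) and Gata4 (r = 0.97), both cardiac transcription factors, followed, with Zfp777 and Fabp2 between them in rank. Ranks 6 to 10 were Gpx3 (r = 0.97) and Nmi, Ptprz1, Trmt9b and Gm14635 (r = 0.96 each). Gata4 levels were 1.32 and -0.68 in GFP+ and GFP- cells of E8.5, -2.07, -2.54 and -1.52 in gated, remaining GFP+ and GFP- cells of E9.5, and -3.69 and -3.23 in gated and remaining GFP+ cells of E11.5.

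For single genes, Myl4 was nearest to Tex26 (r = 0.986), with Gata4 second (r = 0.984). Tnnt2 was nearest to Fyb (r = 0.985), with Myl1, a skeletal and embryonic light chain, second (r = 0.98). The profile of Hand1 was nearest to Krt18 (r = 0.997), Pus7l (r = 0.99) and Krt8 (r = 0.99). Krt18 and Krt8 are keratins of simple epithelia. Hand2 was nearest to 5033428I22Rik, Necab1 and Tnni3k (r = 0.98 each). Nkx2-5 was nearest to Nr6a1 and to Tek, an angiopoietin receptor of endothelium (r = 0.99 each). Actc1 was nearest to Hbegf (r = 0.99) and Hapln1 (r = 0.98), Mef2c to Cck (r = 0.96), Myh6 to Ephb1 (r = 0.97), Myh7 to Parvb (r = 0.96) and Myl7 to Gabrg3 (r = 0.95).

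Promoters of 9 of the 10 genes, 13 in all, were found in RefSeq for GRCm38.p6, and short muscle motifs were sought on both strands in the 250 bases before each start. The CArG box, the site of serum response factor, occurred in 1.47% of 32851 promoters and in those of Actc1 (-47 to -38) and Myl7 (-61 to -52). The MEF2 box occurred in 2.92% of promoters and in none of these 13. GATAA, a core of GATA sites, occurred in 22.6% of promoters and in 4 of these 13 (Hand2, Mef2c, Tnnt2 and Myl7). CATTCC, a core of TEAD sites, occurred in 12.6% and in 5 of the 13 (Mef2c, Tnnt2, Myh6, Myh7 and Myl7). CANNTG, the E-box, occurred in 66.2% and in 10 of the 13, which belong to 7 genes. TNAAGTG, a core of NKX2-5 sites, occurred in 10.1% and in 1 of the 13 (Myh7), and TATAAA in 12.4% and in 2 of the 13 (both of Mef2c). These are letter matches, not measured sites. The stretches from -140 to -1 of the genes with a CArG box are printed with their matches in capitals: the CArG box in Actc1, and CATTCC, the CArG box and GATAA, in this order and without overlap, in Myl7.
Actc1, chr2:114052876-114053015, minus strand: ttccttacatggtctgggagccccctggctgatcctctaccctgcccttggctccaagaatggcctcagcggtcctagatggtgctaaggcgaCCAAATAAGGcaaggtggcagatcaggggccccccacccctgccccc
Myl7, chr11:5898783-5898922, minus strand: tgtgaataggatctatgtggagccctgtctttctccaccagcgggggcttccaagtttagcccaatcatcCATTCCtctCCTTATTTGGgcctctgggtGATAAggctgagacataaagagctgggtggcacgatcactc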

How the data were processed

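RNA of 7 sorted populations was hybridised to 1 Cy3 Agilent array each, per the labels. The authors used Agilent Feature Extraction 10.7.3.1 for spot intensity (submitters' processing notes). Per the file headers this intensity is background-subtracted and detrended, with surrogates for the dimmest spots. The deposited value table held the same intensity for all 62976 spots of every array, with column medians of 35.2 and 30.6 (E8.5 GFP+ and GFP-), 45.6, 46.9 and 51.3 (E9.5 gated, remaining GFP+ and GFP-) and 36.7 and 40.8 (E11.5 gated and remaining GFP+), so it is linear, neither centred nor scaled. Array coordinates are mm9.

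Of 59305 spots that are not controls, flagged ones were left out and spots of a probe were averaged; 34 probes flagged on an array were dropped. Of 55647 probes, 26413 were named by RefSeq accession, 8927 by the array name and 20307 had no name. For each gene the probe of highest mean level was taken. Probes counted as well above background when this held for a share of 0.5 or more of their spots. In a bound, the dim side was raised to the array's lowest well-above value where its own value lay under that. Calculations used pandas 2.3.3, numpy 2.4.6, R 4.3.3 and limma 3.58.1 and were tested on simulated data. The genes changed there lay far above the lowest well-above value, with a spot SD of 0.13 log2 units. That check therefore cannot show how changes of dim genes, or bounds, are recovered. No model was fitted, since each population has 1 array.

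The genes and lists were chosen with earlier results of these data known, and the lists overlap. Named genes are the 10 members, up to 4 genes per side past 4-fold in each list, and the nearest profiles (10 for the sarcomere mean, 3 per member). Myod1 is named as the brightest gene of its list, and Des as the brightest of its list in gated cells of E11.5. Alternatives were quantile normalization, no scaling, normexp with an offset of 50 and quantile normalization, no filter, both arrays above background, and the median over probes.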

Additional observations from a re-analysis of the deposited data

Results flagged for a closer look

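In 5 cases a gene lay on opposite sides of GFP- cells at E9.5 and E8.5 with a difference of at least 2-fold at both stages; opposite signs with a smaller difference at either stage are not listed. The cases concern Tnnt2, Myl4 and Hand2 only, and all of them share both arrays of E8.5 and the GFP- array of E9.5. Gated against remaining GFP+ cells at E9.5 and E11.5, searched by the same rule, gave no case. The share of all measured genes that meet this rule was not counted. The difference between the stages was not tested, since each population has 1 array.

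Tnnt2 stood at -1.19 log2 units in remaining GFP+ minus GFP- cells of E9.5, against 2.52 in GFP+ minus GFP- cells of E8.5. Myl4 stood at -1.90 and 2.41 in the same 2 comparisons. With gated cells in place of the remaining GFP+ cells of E9.5, Tnnt2 was at -2.13 (a bound) against 2.52, Myl4 at -1.03 against 2.41, and Hand2 at -1.63 (a bound) against 2.77. The tissue differed too, the caudal part at E9.5 and the whole embryo at E8.5. The GFP- arrays also differ in slide. With normexp the difference of Tnnt2 in gated minus GFP- cells of E9.5 was -0.73, under 2-fold.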

How the results depend on the processing

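Of 19 differences of at least 4-fold among the 10 genes, 18 stayed past 4-fold under quantile normalization, 18 without scaling, 19 with no filter, 17 with the median over probes and 11 with normexp, and all kept their sign. Genes above background on both arrays gave a value for 11, all past 4-fold. Counts that moved by more than 1.5 times were as follows. Under quantile normalization, 2 genes were at least 4-fold lower in gated than in remaining GFP+ cells of E9.5, and 1 was lower in remaining GFP+ than in GFP- cells of E9.5, as it was without scaling (1). With normexp, 2 genes were higher at E8.5, 1 was higher in remaining GFP+ than in GFP- cells of E9.5, 1 was lower in gated cells of E11.5 than of E9.5, and 0 were lower in gated than in GFP- cells of E9.5 or in gated than in remaining GFP+ cells of E11.5. With both arrays above background, 0 were lower in gated than in remaining GFP+ or GFP- cells of E9.5, in gated than in remaining GFP+ cells of E11.5, in gated cells of E11.5 than of E9.5, and in remaining GFP+ cells of E11.5 than of E9.5, because bounds drop out. Smaller moves were those of genes lower in remaining GFP+ cells of E11.5 than of E9.5, 3 as reported, to 2 under quantile normalization, without scaling and with normexp and to 4 with no filter; of genes higher at E8.5, 5 as reported, to 7 with no filter and 4 with the median over probes; and of genes lower in remaining GFP+ cells of E9.5 than in GFP+ cells of E8.5, 3 as reported, to 2 with the median over probes. Normexp adds an offset that shrinks dim differences. Over all genes, too, fewer passed 4-fold with normexp, in every comparison and on both sides. The cause of the other changes with normexp was not tested.

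The split of all genes past 4-fold moved with the scaling. It was 198 higher and 280 lower in gated against remaining GFP+ cells of E9.5 (458 and 320 under quantile normalization), 189 and 300 in remaining GFP+ against GFP- cells of E9.5 (201 and 583), 399 and 192 in remaining GFP+ cells of E9.5 against GFP+ cells of E8.5 (207 and 393), 379 and 813 in remaining GFP+ cells of E11.5 against E9.5 (744 and 429), and 319 and 329 in GFP- cells of E9.5 against E8.5 (595 and 191 without scaling). Background limits the HAND genes and Nkx2-5 at E11.5. The slide as a block was not run, with 1 array per population. No paired analysis was possible because each group has 1 sample.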
